A study of Homo sapiens with 6 samples.

Results

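ASCL2 and 9 other genes of intestinal stem cells and of the WNT pathway were followed in LS 174T cells given propionate. The 10 genes were taken by symbol from the count tables (ASCL2, LGR5, OLFM4, SMOC2, RNF43, ZNRF3, AXIN2, NKD1, ETS2 and TCF7), and all 10 were found among 24462 symbols, each on a single line. LS 174T is an established human colorectal adenocarcinoma line that makes mucins, and GEO's labels describe it as a goblet cell line. The control group was untreated (3 libraries), and the propionate group had 4 mM propionate, a short-chain fatty acid of bacterial fermentation, for 4 h (3 libraries). All 6 libraries came from the same line, grown with serum, and the series' question was whether propionate raises the mucin gene MUC2. Whether each library came from its own culture is not stated in the labels. The p-values below therefore refer to the variation among these 6 libraries, part of which may be purely technical.

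At the base of intestinal crypts, WNT ligands bind Frizzled and LRP receptors, the complex that destroys β-catenin is halted, and β-catenin with TCF/LEF factors switches on genes that keep stem cells dividing. Several of these targets act back on the pathway: RNF43 and ZNRF3 remove Frizzled from the cell surface unless R-spondin and its LGR receptors prevent it, and AXIN2 and NKD1 act against the signal inside the cell. ASCL2 is itself a WNT target and, with β-catenin and TCF, a regulator of the stem cell programme. LS 174T carries a stabilising β-catenin mutation, so its WNT target genes are on without added ligand.

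Reads per library numbered 11603288 to 12746170, and levels are given as CPM, the reads of a gene per 1000000 reads after TMM scaling, on which 3 reads correspond to 0.233 to 0.262 CPM. Of 10 epithelial markers all 10 were tested, and EPCAM averaged 671.4 ± 33.8 CPM in the controls and 621.9 ± 19.9 CPM in the propionate libraries (mean ± SD, n = 3). Of 15 markers of immune, stromal and endothelial cells, CD3E, DCN, VWF and CDH5 had no read in any library, and the list summed to 40.1 to 45.2 CPM in control and 35.5 to 39.7 CPM with propionate. Among goblet cell markers MUC2 was at 202.7 ± 20.5 CPM and TFF3 at 261.7 ± 27.15 CPM in control, whereas ATOH1, the transcription factor that sets secretory fate, had no read in any of the 6 libraries. The same held for 5039 of the 24462 symbols. As the annotation used for counting is not given, a lack of reads does not by itself show that a gene is silent. In RNA from whole cultures, fewer cells of a kind and less RNA per cell cannot be told apart.

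With propionate, ASCL2 fell 3.70-fold, LGR5 1.85-fold, ETS2 1.51-fold and RNF43 1.49-fold, while NKD1 rose 1.44-fold. The other 5 genes, OLFM4, SMOC2, ZNRF3, AXIN2 and TCF7, did not pass the test (quasi-likelihood test of edgeR, with p adjusted by Benjamini-Hochberg over 13605 genes and a threshold of 0.05). Thus 1 of 10 was higher and 4 of 10 were lower, where 17.2% of all genes tested were higher and 17.0% were lower. The median log2 fold change of the 10 was -0.29, beside -0.01 over all genes tested. For 5 of the 10 the ranges of the 3 control and the 3 propionate libraries did not overlap, which is near the 45.2% found over all genes tested.

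Libraries of the same replicate number resembled each other, and in a fit with that number as a block 2 of the 10 were higher and 6 lower, against 21.9% and 22.6% of all genes. The genes added by the block were AXIN2 (higher), OLFM4 and TCF7 (both lower), and the 5 calls made without it were also made with it. The pairing was read from the data, as described under the processing.

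**Figure D1:**
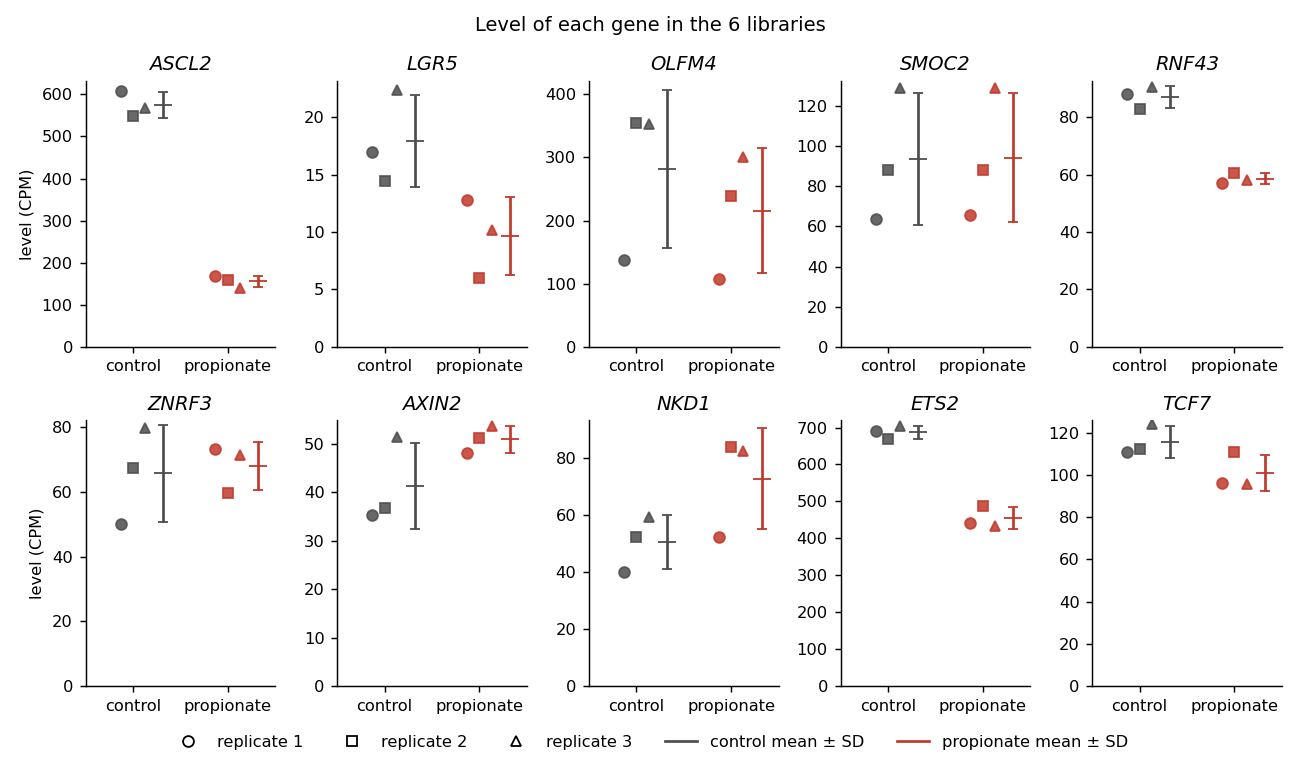
Level of each of the 10 genes in CPM (vertical axis, from 0) in the control and propionate libraries, with a symbol for each replicate number and bars for mean ± SD (n = 3). ASCL2 went from 548.4 to 608.3 CPM down to 140.2 to 167.5 CPM, while OLFM4 and SMOC2 varied between libraries of one group by more than between the groups.

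**Figure D2:**
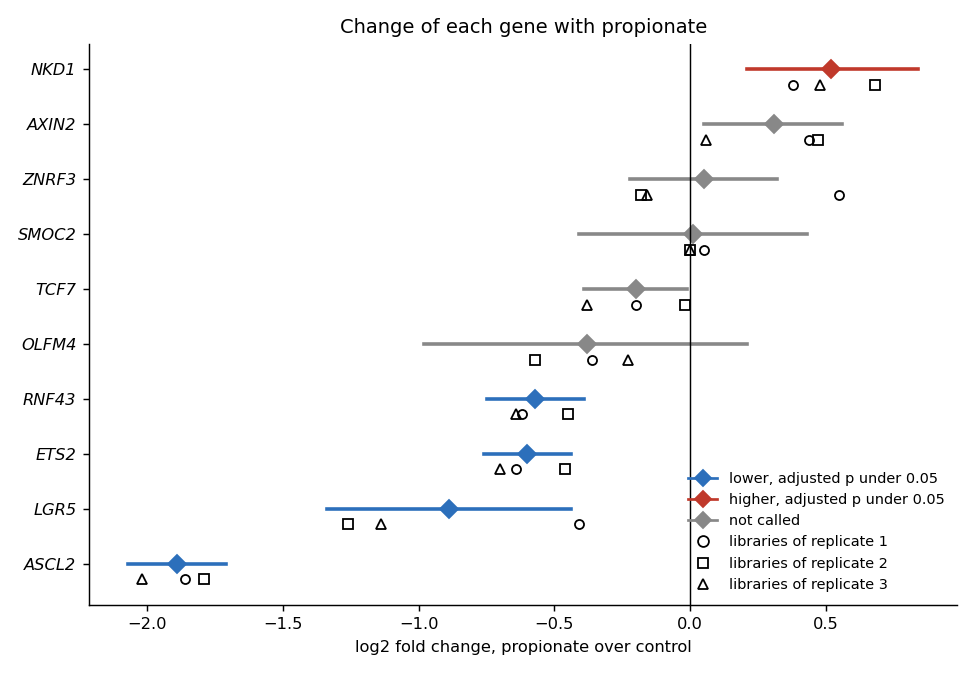
Log2 fold change of each gene (diamond) with its unadjusted 95% interval (line), coloured by the call, and the log2 ratio of the libraries of each replicate number (open symbols). ASCL2, at -1.89, lies furthest from 0, and NKD1, at 0.52, is the called gene to the right of 0.

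ASCL2 encodes a basic helix-loop-helix transcription factor that marks and maintains crypt base stem cells, and it lies on chromosome 11. Its level was 608.3, 548.4 and 567.5 CPM in control libraries 1 to 3 and 167.5, 158.7 and 140.2 CPM in propionate libraries 1 to 3. Every control library was thus above 3 times the highest propionate library, and the spread within a group was small. The log2 fold change was -1.89 (SE 0.0866, 95% interval -2.07 to -1.71, edgeR adjusted p = 3.33e-11). The libraries of replicate numbers 1, 2 and 3 differed by -1.86, -1.79 and -2.02 on the log2 scale. Among the 2158 genes with a mean of at least 100 CPM, ASCL2 had the lowest log2 fold change, and among all 13605 it ranked 20. The GC content of its reference transcript, 69.2%, was above that of 99.5% of the tested genes. When the trend of each library on GC content was removed in the blocked fit, its log2 fold change was -2.28 with the GC content of the transcript and -2.13 with that of the last 500 bases.

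ETS2, on chromosome 21, encodes an ETS family transcription factor that is a target of growth factor signalling and belongs to the genes enriched in stem cells of the crypt. It was read at 689.3, 669.5 and 704.7 CPM in control and at 441.4, 487.8 and 433.6 CPM with propionate. All 3 propionate libraries were below the controls, with a log2 fold change of -0.60 (SE 0.0772, edgeR adjusted p = 8.28e-06). Its relative ETS1 had 13 reads over the controls and 10 over the propionate libraries, too few to be tested.

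TCF7, on chromosome 5, encodes TCF-1, a partner of β-catenin on DNA that is made in full-length and shorter, repressive forms. Its levels were 110.7, 112.2 and 124.3 CPM in control and 96.2, 110.7 and 95.5 CPM with propionate, so that the highest propionate library lay below the lowest control by less than the rounding of these values. The log2 fold change was -0.20 (SE 0.0892, 95% interval -0.39 to -0.01) and missed the threshold (edgeR adjusted p = 0.0928). With the replicate block it was called as lower (log2 fold change -0.20, adjusted p = 0.0149), and likewise without propionate library 2 (-0.27, adjusted p = 0.0432). SKP1 overlaps TCF7 on the opposite strand in GENCODE release 29, and averaged 273.4 ± 9.09 CPM in the controls and 280.1 ± 18.9 CPM in the propionate libraries. The counting's strand setting is not given, so reads of overlapping genes may be mixed.

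LGR5, on chromosome 12, encodes the R-spondin receptor that is the standard marker of crypt base stem cells. It was a low transcript here, with 194, 169 and 268 reads (17.0, 14.5 and 22.3 CPM) in control and 165, 75 and 120 reads (12.8, 6.03 and 10.2 CPM) with propionate. The propionate libraries were below the controls, but propionate library 1 was near control library 2. The log2 fold change was -0.89 (SE 0.215, edgeR adjusted p = 0.00325), and the libraries of replicate numbers 1, 2 and 3 differed by -0.41, -1.26 and -1.14. It was -0.64 without propionate library 2 (adjusted p = 0.0184) and -1.15 without propionate library 1 (adjusted p = 0.00129). TSPAN8, which overlaps LGR5 on the opposite strand, averaged 288.7 ± 53.3 CPM in the controls and 247.8 ± 34.2 CPM in the propionate libraries (log2 fold change -0.22, edgeR adjusted p = 0.147, and 0.00198 with the block).

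LGR4, the related R-spondin receptor with broader expression, went the other way, from 28.7 ± 2.63 to 40.1 ± 5.11 CPM (1.40-fold higher, edgeR adjusted p = 0.00345). Within a library, the ratio of LGR5 to LGR4 reads had a log2 of -0.80, -0.83 and -0.46 in control and -1.84, -2.59 and -1.89 with propionate. The ratio was lower in all 3 propionate libraries, by 1.41 on average on the log2 scale (two-sided exact permutation test, p = 0.1, the smallest that 3 against 3 allows). LGR6, the other family member, had 7 to 10 reads per library and was not tested.

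RNF43 and ZNRF3 encode closely related membrane ubiquitin ligases that remove Frizzled receptors. RNF43, on chromosome 17, was at 87.9, 82.8 and 90.3 CPM in control and at 57.1, 60.6 and 58.05 CPM with propionate. The spread within each group was a few CPM, far below the difference between them. Its log2 fold change was -0.57 (SE 0.0876, edgeR adjusted p = 5.3e-05), and it was between -0.66 and -0.55 over 19 alternatives, in each of which it was called. SUPT4H1, which overlaps RNF43 on the same strand, averaged 497.9 ± 29.9 CPM in the controls and 465.1 ± 32.3 CPM in the propionate libraries (edgeR adjusted p = 0.374).

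ZNRF3, on chromosome 22, was at 50.0, 67.4 and 79.6 CPM in control and at 73.3, 59.6 and 71.3 CPM with propionate, with the groups overlapping. Its log2 fold change was 0.05 (SE 0.130, 95% interval -0.22 to 0.32, edgeR adjusted p = 0.799). It was higher with propionate by 0.55 in replicate number 1 and lower by 0.18 and 0.16 in the other two. The ratio of RNF43 to ZNRF3 reads had a log2 of 0.81, 0.30 and 0.18 in control and -0.36, 0.03 and -0.30 with propionate, so that all 3 propionate libraries were below the controls (difference -0.64, two-sided exact permutation p = 0.1).

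AXIN2 and NKD1 encode inhibitors that WNT signalling itself induces: AXIN2 is a scaffold of the complex that destroys β-catenin, and NKD1 binds Dishevelled. AXIN2, on chromosome 17, was at 35.4, 36.9 and 51.5 CPM in control and at 48.2, 51.2 and 53.7 CPM with propionate. Control library 3 lay within the range of the propionate libraries, and the other 2 controls lay below it. The log2 fold change was 0.31 (SE 0.124) and missed the threshold (edgeR adjusted p = 0.0641). It was called as higher with the replicate block (0.32, adjusted p = 0.00434) and without control library 3 (0.49, adjusted p = 0.00185). AXIN1, the constitutive paralogue, was at 27.6 ± 0.685 and 27.1 ± 2.59 CPM (log2 fold change -0.02, adjusted p = 0.905).

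NKD1, on chromosome 16, was at 40.1, 52.2 and 59.2 CPM in control and at 52.1, 83.8 and 82.3 CPM with propionate. Propionate library 1 reached no further than control library 2, and both other propionate libraries were above every control. The log2 fold change was 0.52 (SE 0.152, edgeR adjusted p = 0.0117), and within replicate numbers 1, 2 and 3 it was 0.38, 0.68 and 0.48. The call was lost with DESeq2 (0.53, adjusted p = 0.137) and without control library 1 (0.38, adjusted p = 0.0588), propionate library 2 (0.41, adjusted p = 0.066) or propionate library 3 (0.42, adjusted p = 0.0565). With the block its adjusted p was 3.45e-06.

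NKD2, the paralogue of NKD1, was close to silent in control, with 9, 13 and 10 reads, and had 64, 92 and 69 reads with propionate. This was a 6.59-fold rise, from 0.911 ± 0.176 to 6.07 ± 1.23 CPM (edgeR adjusted p = 2.65e-06). The log2 ratio of NKD1 to NKD2 reads was 5.60, 5.50 and 6.08 in control and 3.38, 3.49 and 3.81 with propionate. The groups were thus separate, with a difference of -2.16 (two-sided exact permutation p = 0.1).

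OLFM4 and SMOC2 encode secreted proteins that mark stem cells of the human crypt base. OLFM4, on chromosome 13, was at 137.3, 354.3 and 352.5 CPM in control and at 107.0, 239.1 and 301.5 CPM with propionate. Library 1 was the lowest of both groups, and for each replicate number the propionate library was below its control. Without the block the log2 fold change was -0.38 (SE 0.285, 95% interval -0.98 to 0.21, edgeR adjusted p = 0.323), and with the block it was -0.38 (SE 0.0586, adjusted p = 5.65e-06). The value was -0.72 without control library 1 (adjusted p = 0.0138) and -0.06 without propionate library 1 (adjusted p = 0.884).

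SMOC2, on chromosome 6, was at 63.8, 88.3 and 128.8 CPM in control and at 65.8, 88.2 and 129.0 CPM with propionate. The 3 levels of one group were met by those of the other, replicate number by replicate number. The log2 fold change was 0.01 with an SE of 0.202 without the block and 0.0621 with it (edgeR adjusted p = 0.982 and 0.882). SMOC1, its paralogue, was at 7.24 and 10.95 CPM (1.52-fold higher, adjusted p = 0.0389), with libraries that overlapped.

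Within-library ratios, which need no scaling factor, were computed for 9 pairs of a gene and a partner. In 5 of them the groups were separate, at the smallest possible p of 0.1, and none passed after adjustment over the 9 pairs (adjusted p = 0.18 for these 5). Besides the 3 ratios given above these were ASCL2 to AXIN2 and TCF7 to TCF7L2. The log2 ratio of ASCL2 to AXIN2 was lower by 2.21 on average, from 4.10, 3.89 and 3.46 in control to 1.8, 1.63 and 1.38 with propionate. Relative to LGR5 it was lower by 0.96 on average, but the groups met (5.16, 5.24 and 4.66 against 3.71, 4.71 and 3.78, exact permutation p = 0.2). Relative to TCF7L2, the main TCF of intestinal epithelium, TCF7 had a log2 ratio of -0.52, -0.72 and -0.27 in control and -0.90, -0.87 and -1.01 with propionate. TCF7L2 itself was at 164.5 ± 18.2 and 191.0 ± 11.15 CPM (log2 fold change 0.22, edgeR adjusted p = 0.0695, and 0.00257 with the block). The remaining pairs, AXIN2 to AXIN1, SMOC2 to SMOC1 and ETS2 to ETS1, had p values of 0.2, 0.4 and 0.7 in the same exact test.

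**Figure D3:**
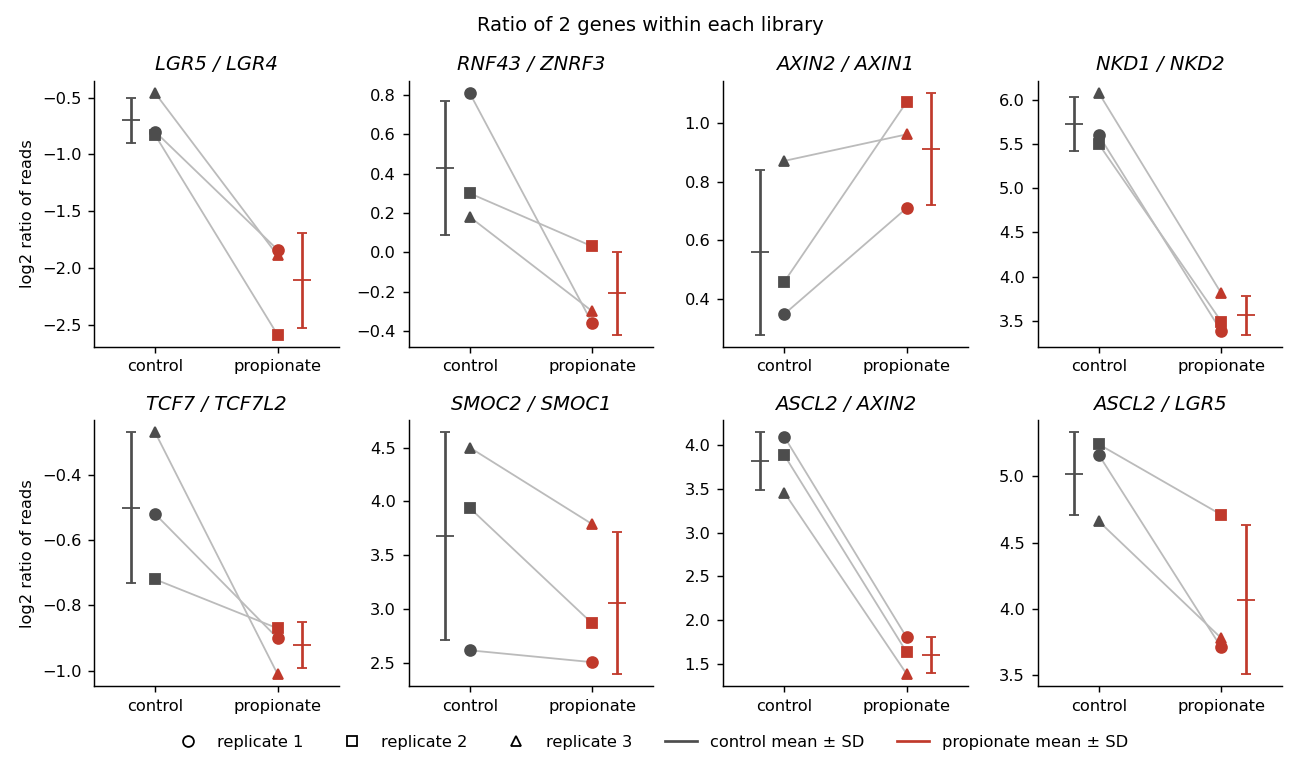
Log2 ratio of the reads of 2 genes within each library (vertical axis, a separate scale in each panel) for 8 pairs, with lines joining libraries of the same replicate number and bars for mean ± SD (n = 3). The ratio of NKD1 to NKD2 went from a mean of 5.73 to 3.56, and that of ASCL2 to AXIN2 from 3.82 to 1.60.

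RefSeq promoter windows (GRCh38.p14, the 250 bases before a start site) were held for 5 of the 10 genes: OLFM4, SMOC2, RNF43, ETS2 and TCF7. No entry was held for ASCL2, LGR5, ZNRF3, AXIN2 or NKD1. The windows of RNF43 and ETS2, the called genes with an entry, are shown for their most upstream start site, with CG dinucleotides in capitals. RNF43 lies at chr17:58417535-58417784 on the minus strand and ETS2 at chr21:38804933-38805182 on the plus strand.
RNF43: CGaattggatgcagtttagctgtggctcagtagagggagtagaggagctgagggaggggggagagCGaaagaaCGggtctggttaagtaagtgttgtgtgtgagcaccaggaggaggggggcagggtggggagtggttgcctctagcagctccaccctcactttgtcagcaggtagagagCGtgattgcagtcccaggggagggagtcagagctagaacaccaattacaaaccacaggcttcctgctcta
ETS2: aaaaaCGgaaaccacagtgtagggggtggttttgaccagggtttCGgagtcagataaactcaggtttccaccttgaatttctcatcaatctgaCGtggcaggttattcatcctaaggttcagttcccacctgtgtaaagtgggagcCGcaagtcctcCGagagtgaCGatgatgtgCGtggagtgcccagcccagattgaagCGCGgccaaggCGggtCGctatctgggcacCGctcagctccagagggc
These 2 genes fell by a like amount, and their windows had 4 and 12 CG dinucleotides, beside a median of 11 over 35116 windows of the same length, with a GC content of 56.0% and 54.4%. The TCF/LEF motif CTTTGAT, its variant CTTTGAA and the E-box CAGCTG, a motif of ASCL-type factors, were searched on both strands. None of the 3 was in any of the 8 windows of the 5 genes. They were in 2.26%, 3.80% and 14.0% of all windows, and the absence of these letters says nothing of binding elsewhere.

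Other parts of the pathway were described from lists of its members, whose counts are to be read against the 17.2% of all genes tested that were higher and the 17.0% that were lower. Of 13 tested receptors of WNT and R-spondin, with the R-spondins, 6 were higher (46.2%, beside 17.2% of all genes) and 1 was lower (7.7%, beside 17.0%), with a median log2 fold change of 0.09. With the block RSPO1 was also lower (adjusted p = 0.00653). FZD4 rose 2.51-fold, from 4.87 ± 1.36 to 12.2 ± 0.450 CPM, FZD5 rose 1.37-fold, and LGR4 was the third by p. FZD6, a Frizzled of non-canonical signalling, fell 1.87-fold, from 18.8 ± 1.62 to 10.1 ± 0.943 CPM. Among 5 tested genes of WNT ligands and their secretion, WNT7B rose 2.59-fold from a low level, 2.03 ± 0.297 CPM, and none was lower (also none at an unadjusted p under 0.05 with edgeR, and none with DESeq2 or limma-voom). With the block PORCN and WNT4 were also higher (adjusted p = 0.0405 and 0.0467). Of 3 tested extracellular antagonists, KREMEN2, a receptor of the DKK inhibitors, rose 5.25-fold, from 1.60 ± 0.849 to 8.43 ± 2.25 CPM. APCDD1, a WNT target that blocks the receptors, was at 18.4 ± 5.12 and 18.5 ± 2.22 CPM.

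Of 22 genes of the complex that destroys β-catenin and of Dishevelled, 3 were higher (NKD2, CSNK1D and APC2) and 2 lower (GSK3B and APC), with a median of 0.04. These shares, 13.6% and 9.1%, are below the 17.2% and 17.0% of all genes, so the counts show nothing about the complex as a group. With the block CSNK1G1 and CSNK1G2 were also higher (5 of 22, or 22.7%, beside 21.9% of all genes). GSK3B, the kinase that marks β-catenin for destruction, fell 1.48-fold, from 46.4 ± 2.72 to 31.3 ± 2.48 CPM, and the scaffold APC fell 1.27-fold. CTNNB1, which encodes β-catenin, was at 766.0 ± 113.4 and 791.1 ± 108.7 CPM (log2 fold change 0.05, edgeR adjusted p = 0.771). Of 15 TCF/LEF factors and cofactors, 4 were higher (26.7%, beside 17.2% of all genes) and 1 was lower (6.7%, beside 17.0%), with a median of 0.26 (0.08 with the GC trend of the transcript removed in the blocked fit). The higher ones were CBY1, an inhibitor of β-catenin (1.53-fold), the Groucho corepressor TLE3 (1.56-fold), PYGO2 (1.27-fold) and BCL9L (1.25-fold). CTBP1, a corepressor, fell 1.41-fold (edgeR adjusted p = 9.96e-05). With the block TCF7L2 and TLE2 were also higher (adjusted p = 0.00257 and 0.0443), which made 6 of 15 (40.0%, beside 21.9% of all genes).

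Among 21 further WNT target genes 6 were lower (28.6%, beside 17.0% of all genes) and 4 higher (19.0%, near the 17.2% of all genes), with a median of -0.09. MYB, a factor of crypt progenitors, fell 1.67-fold, from 198.4 ± 17.0 to 118.7 ± 4.36 CPM. SOX4 fell 1.81-fold and the ephrin receptor gene EPHB3 1.95-fold, from 1068 ± 195.6 to 548.2 ± 134.9 CPM. The 4 higher genes were NKD2 (also counted with the destruction complex above), PPARD (2.08-fold), BAMBI (1.88-fold) and JUN (1.27-fold). Several of the best known targets did not pass without the block: MYC was at 22.4 ± 6.12 and 19.3 ± 5.21 CPM, CCND1 at 283.1 ± 18.3 and 265.9 ± 17.8 CPM, SOX9 at 357.9 ± 28.5 and 386.6 ± 16.4 CPM, and EPHB2 at 339.3 ± 20.6 and 382.6 ± 13.2 CPM. With the block EPHB2 was also higher and CD44 also lower (adjusted p = 0.00462 and 0.0234). This made 5 higher (23.8%, beside 21.9% of all genes) and 7 lower (33.3%, beside 22.6%).

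Of 18 tested further stem cell markers 6 were lower (33.3%, beside 17.0% of all genes) and none was higher (beside 17.2%), with a median of -0.17 (edgeR, 1 higher at an unadjusted p under 0.05, and none with DESeq2 or limma-voom). With the block EPHB2 and IGFBP4 were higher (adjusted p = 0.00462 and 0.021) and 8 were lower (44.4%, beside 22.6% of all genes). PTPRO, a receptor tyrosine phosphatase, fell 3.66-fold, from 13.9 ± 0.423 to 3.79 ± 0.425 CPM. RGMB, a BMP co-receptor, fell 2.44-fold, from 2216, 3611 and 4213 reads to 1334, 1456 and 1530, and the telomerase gene TERT fell 1.95-fold, from 14.95 ± 0.666 to 7.67 ± 1.37 CPM. SLC12A2, an ion cotransporter of crypt base cells, was at 867.1 ± 10.1 and 894.7 ± 48.6 CPM (adjusted p = 0.681). The list is not separate from that of the WNT targets. EPHB2, SOX9, SP5, CD44 and CDCA7 are on both, and CDCA7 was counted as lower in both.

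Among the ASCL family and its helix-loop-helix partners 3 of 6 tested genes were lower (beside 17.0% of all genes) and none was higher (beside 17.2%; edgeR, also none higher at an unadjusted p under 0.05, and none with DESeq2 or limma-voom). ID3, which blocks such factors by binding their E-protein partners, fell 2.12-fold, from 224.0 ± 30.2 to 105.8 ± 15.6 CPM. The E-protein genes TCF3 and TCF12 fell 1.19-fold and 1.20-fold. With the block ID1 was also lower (adjusted p = 0.0176), which made 66.7% lower, beside 22.6% of all genes. ASCL5 had at most 11 reads in a library and was not tested, and ASCL3 and ASCL4 had no read in any library.

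**Figure D4:**
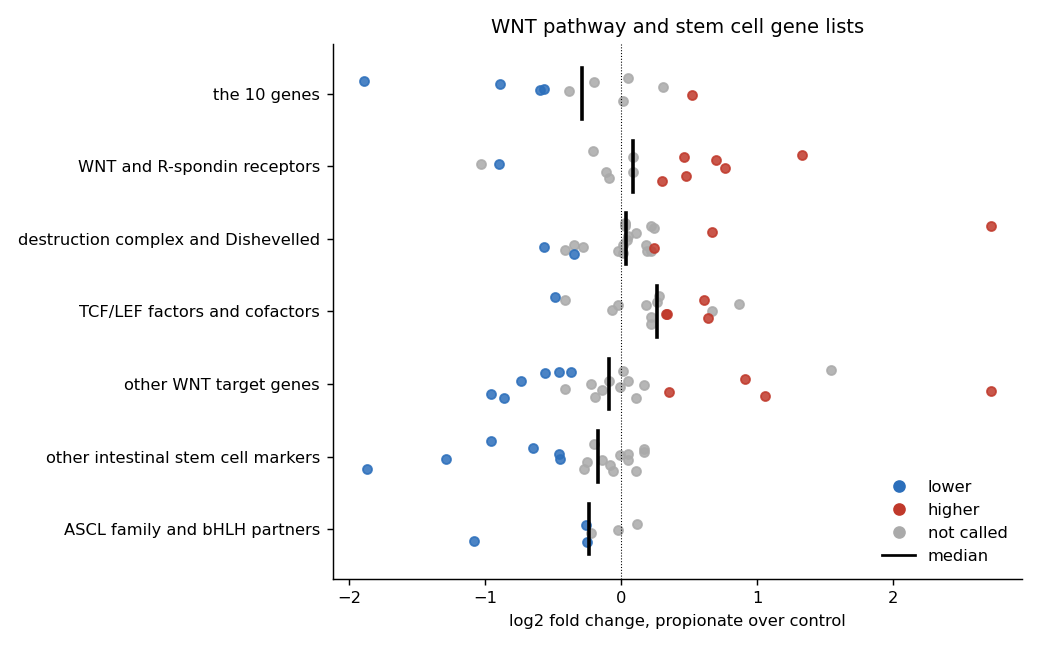
Log2 fold change of each tested gene (points, horizontal axis) for the 10 genes and 6 of the 8 lists of related genes, without the 2 of fewer than 6 tested genes (WNT ligands and extracellular antagonists), coloured by the call, with the median of each row as a black line. The medians shown lie between -0.29 for the 10 genes and 0.26 for the TCF/LEF factors and cofactors.

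The genes whose pattern was most like that of ASCL2 were those with the smallest Euclidean distance of centred log2 CPM over the 6 libraries, among 9285 other genes with a mean of at least 10 CPM. They were PRDM15 (distance 0.327), PTGDR (0.335), FAM217B (0.497), RGMB-AS1 (0.530) and EPC1 (0.576). Their log2 fold changes were -1.98, -1.94, -1.77, -1.94 and -1.48. RGMB-AS1 overlaps the stem cell marker RGMB on the opposite strand in GENCODE release 29. For AXIN2 the nearest were ARNT (0.144), EPHA4 (0.158), C2CD4A (0.174), TSC1 (0.182) and NUDCD1 (0.186), with log2 fold changes between 0.21 and 0.44. C2CD4A and TSC1 were called as higher (edgeR adjusted p = 0.023 and 0.0138). All these genes were picked for their likeness over the same 6 libraries. Their fold changes and calls thus follow largely from that choice and are no separate result.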

How the data were processed

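RNA was measured in 6 libraries of LS 174T cells (3 control, 3 propionate), prepared from total RNA (500 ng) by Lexogen's QuantSeq kit per the labels' protocols. Each library has 1 deposited table of raw read counts by gene symbol. Per the submitters' processing notes, Bowtie2, edgeR, hg19 and GRCh37 were used. For versions, read counter, strand setting and annotation, the sources used here give nothing. Such a kit reads near the 3' end, so a gene's count does not report its splice forms.

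Counts of the 286 symbols on several lines were summed. The quasi-likelihood test of edgeR 4.0.16 (R 4.3.3) was fitted, with TMM factors and without covariates, to the 13605 genes that filterByExpr keeps, with Benjamini-Hochberg adjustment over all of them (threshold 0.05), after the script was tested on simulated data. SEs are the log2 fold change over the root of F. Within each group the libraries differed beyond sampling noise (chi-square per degree of freedom 6.01 to 8.85 over genes with at least 20 reads). Intervals from 3 libraries a group are wide, and reads carry no molecular identifiers in these tables.

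Replicate numbers came from the marks in the sample titles, and the description labels of replicates 2 and 3 share a word across the groups. Over 9286 genes, same-number libraries deviated together from their groups' means (correlations 0.238, 0.393 and 0.44), all over the limit of 0.1, so the numbers were taken as pairs. Other pairs of libraries correlated between -0.352 and 0.0104. Such deviations sum to 0 within a group, so this is weak evidence of pairing.

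Genes named are the 10, their partners, up to 3 called genes per list and direction with the smallest p, and the 5 nearest to ASCL2 and to AXIN2. Genes given beyond this rule were chosen after their values were seen. Alternatives were DESeq2 1.42.0, limma-voom (limma 3.58.1), other scaling factors and filters, a threshold of 0.01, the block with and without a GC correction, thinning, repeated symbols and leaving out each library. GC content came from GENCODE release 29 transcripts, which matched 21874 symbols and all 10 genes. The GC content of the last 500 bases was added after seeing the data. The 10 genes and the lists were chosen with earlier results of these data known.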

Additional observations from a re-analysis of the deposited data

How the results depend on the processing

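ASCL2, LGR5, RNF43 and ETS2 were called as lower in all 19 alternatives, and SMOC2 and ZNRF3 were called in none. Of the 10 genes, the number called as higher was 2 with upper-quartile factors, with limma-voom, without a filter on low counts, with the replicate block, and with the block and either GC content. It was 0 with DESeq2 (1 at an unadjusted p under 0.05) and at the threshold of 0.01, and it ran from 0 to 2 when 1 library was left out. The genes concerned were NKD1, called in 14 of 19 alternatives (adjusted p from 1.85e-06 to 0.137), and AXIN2, called in 7 (0.00105 to 0.258). OLFM4 was called as lower in 5 (5.65e-06 to 0.884), among them the fit without a filter, and TCF7 in 4 (8.29e-05 to 0.269). Over all genes, 4659 were called and 3009 at the threshold of 0.01. Permuting within replicate numbers, the paired form of the ratio test, gave the smallest p it allows, 0.25, for 8 of 9 pairs, against 5 at 0.1 without pairing. No value of a called gene changed sign. For the lists of related genes and markers, the number called in a direction moved beyond a set factor in 72 comparisons with the main fit. It stayed within that factor in 422. The median log2 fold change of a list moved by more than its spread among replicate numbers in 36 comparisons and by less in 211. The cause of these changes was not tested. LGR5 had the fewest reads of the 10 genes, 75 to 268 a library, and thinning all libraries to the smallest left it called (-0.88, adjusted p = 0.00501).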

Other observations

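Markers of mature intestinal cells were also read in the same libraries. Of 10 epithelial markers 3 were higher (beside 17.2% of all genes) and 2 were lower (beside 17.0%). The higher ones were KRT19 (1.36-fold), KRT18 (1.25-fold) and LGALS4 (1.16-fold). The lower ones were the intestinal homeobox genes CDX2 (1.31-fold) and CDX1 (1.18-fold). With the replicate block KRT8 and CDH1 were also higher (edgeR adjusted p = 1.14e-05 and 0.000325). This made 50.0% higher, beside 21.9% of all genes, while 2 of 10 were again lower, beside 22.6%. CDX2 went from 206.8 ± 29.1 to 157.6 ± 10.6 CPM (edgeR adjusted p = 0.00374), with no overlap between the groups. Of 7 tested markers of absorptive cells 1 was higher (14.3%, beside 17.2% of all genes) and none was lower (beside 17.0%). The higher one was SLC26A2, a sulfate transporter (1.58-fold, from 18.2 ± 1.11 to 28.8 ± 2.05 CPM). KRT20, a keratin of the upper crypt, was at 1.26 ± 0.671 and 1.37 ± 0.0951 CPM. Of 11 tested goblet cell markers 1 was higher and 1 lower (9.1% each, below the 17.2% and 17.0% of all genes). The higher one was MUC2 (1.19-fold, edgeR adjusted p = 0.0396). It was at 204.4, 222.2 and 181.3 CPM in control and 248.1, 256 and 218.2 CPM with propionate. The groups overlapped, as control library 2 was above propionate library 3. Within replicate numbers 1, 2 and 3 MUC2 was higher with propionate by 0.28, 0.2 and 0.27 on the log2 scale. With the block its edgeR adjusted p was 0.000295. RETNLB was lower (1.95-fold, from 12.3 ± 2.27 to 6.31 ± 1.81 CPM). With the block AGR2 was also lower (adjusted p = 0.00241), which made 18.2% lower, beside 22.6% of all genes.

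Of 7 tested markers of enteroendocrine, Paneth and tuft cells, 1 was higher (14.3%, beside 17.2% of all genes) and 2 lower (28.6%, beside 17.0%). The tuft cell channel gene TRPM5 rose 8.02-fold, from 13 reads over the 3 controls to 113 with propionate. LYZ, the Paneth cell lysozyme, fell 1.70-fold, and INSM1, an enteroendocrine factor, fell 3.28-fold, from 2.58 ± 0.850 to 0.786 ± 0.212 CPM. With the block AVIL was also higher and DEFA6 lower (adjusted p = 0.0197 and 0.0136). This made 28.6% higher and 42.9% lower, beside 21.9% and 22.6% of all genes.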
